A study of Mus musculus with 10 samples.

Results

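Genes of the NRF2 antioxidant response and the metallothioneins were followed in gastrocnemius muscle, a calf muscle, of mice that lack desmin, the main intermediate filament protein of muscle cells. The genes were taken by name. The group holds 10 genes, Nfe2l2, Nqo1, Hmox1, Gclc, Gclm, Srxn1, Txnrd1, Slc7a11, Mt1 and Mt2, out of 54232 genes in the deposited table, and all 10 were found there by their Ensembl identifiers. RNA-seq was done on 5 homozygous desmin knock-out mice (Des -/-) and 5 wild-type mice (Des wt/wt), described as littermates, of the strain B6J.129Sv-Destm1Cba/Cscl at 3 months of age, with no treatment in either group. The knock-out is present in every cell of the animal from conception, and whole muscle was taken, so blood, vessels, connective tissue and nerve are part of each sample. The labels name gastrocnemius alone, while elsewhere the study speaks of it together with the adjoining plantaris. RNA is described as pooled from 5 muscles of a genotype, but the table gives every mouse its own column, and each column was used as 1 replicate.

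NRF2, encoded by Nfe2l2, is a transcription factor that the adaptor KEAP1 holds at a low protein level by marking it for degradation. Oxidants and electrophiles modify KEAP1, NRF2 then builds up, binds antioxidant response elements together with small MAF proteins and switches on genes for glutathione synthesis, thioredoxin recycling, quinone reduction and heme breakdown. Metallothioneins are small cysteine-rich proteins that bind zinc, copper and cadmium and also react with oxidants. Their genes are switched on by the zinc sensor MTF1 at metal response elements, and also by glucocorticoids and inflammatory signals. Since NRF2 is controlled mainly through protein stability, the transcripts of its targets are its usual readout in RNA data.

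The promoters of the metallothionein pair and of Gclm are shown here because the first 2 genes carry the clearest difference of the group and Gclm lay closest to the threshold on the other side. The sequences are from RefSeq on GRCm38.p6, read on the strand of the gene from 5′ to 3′, and end where an annotated UTR begins. Capitals mark the metal response element core, searched as TGCACNC and TGCGCNC, and the antioxidant response element core, searched as TGACNNNGC, each on both strands.
Mt1, chr8:94178839-94179081, forward strand: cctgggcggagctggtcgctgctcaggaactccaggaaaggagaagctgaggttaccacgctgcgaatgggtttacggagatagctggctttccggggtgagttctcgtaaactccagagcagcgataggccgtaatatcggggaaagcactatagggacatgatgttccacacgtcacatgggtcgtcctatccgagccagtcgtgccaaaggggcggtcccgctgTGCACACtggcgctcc
Mt2, chr8:94172368-94172663, forward strand: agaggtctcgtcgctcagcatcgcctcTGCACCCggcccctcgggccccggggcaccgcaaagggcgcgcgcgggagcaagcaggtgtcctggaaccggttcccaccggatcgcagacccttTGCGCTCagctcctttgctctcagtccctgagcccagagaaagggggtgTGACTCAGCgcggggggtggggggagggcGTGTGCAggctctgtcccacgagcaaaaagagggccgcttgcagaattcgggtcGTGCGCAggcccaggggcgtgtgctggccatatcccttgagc
Gclm, chr3:122245307-122245556, forward strand: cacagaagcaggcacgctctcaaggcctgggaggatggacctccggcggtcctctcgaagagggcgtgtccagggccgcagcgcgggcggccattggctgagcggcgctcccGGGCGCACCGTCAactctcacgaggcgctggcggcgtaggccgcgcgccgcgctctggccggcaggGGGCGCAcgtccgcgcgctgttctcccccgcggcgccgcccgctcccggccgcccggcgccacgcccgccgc
Cores were counted over the full windows of 300 bases, from 250 before to 50 after the RefSeq start. Mt1 held 3 metal response cores. Of these, 1 stands in the printed stretch and the others, TGCACTC and TGCGCTC, lie after this start. The annotated exons of Mt1 together fill its whole span (1246 bases), and starts of shorter transcripts further on were not looked at. The 3 cores are those of this window alone, and whether any of them is transcribed was not tested. The Mt2 window held 4 metal response cores and 1 antioxidant response core. Gclm held 3 metal response cores, of which 2 are printed, and 1 antioxidant response core that overlaps the first of them. Of all 32851 promoter windows of this length, 25.7% held at least 1 metal response core, 1.97% held at least 3, and 12.4% held an antioxidant response core. Among the other members, the windows of Nfe2l2 and Srxn1 held an antioxidant response core, that of Srxn1 lying 29 bases after the start. Txnrd1 had 3 windows, of which only window 2 held one. The windows of Nqo1 and Slc7a11 held none, which says only that these letters are not in these windows. Windows were found for 8 of the 10 members, those without one being Hmox1 and Gclc.

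Values are regularized log (rlog) values, log2 values that were corrected for library size and pulled in towards the gene average, so a difference on this scale is smaller than a log2 fold change of counts. Such values hold neither counts nor depth. The targeted gene Des (ENSMUSG00000026208) ranged from 11.76 to 11.89 in desmin knock-out and from 16.10 to 17.74 in wild-type mice, so no library went against its label. Xist stayed between 0.56 and 0.77 and the mean of 4 Y-linked genes between 9.52 and 10.62 in all 10 mice. Markers of muscle fibers, the labelled tissue, were all detected, the 13 genes having means from 11.37 to 20.58. Wild-type mouse 3 stood apart, with a mean correlation of 0.982 with the other wild-type mice (0.989 to 0.991 for those) and a summed level of 1.48 times the median, and it is left out as an alternative below. A limma fit of the 14289 genes that averaged log2(10) or more gave 13.7% with a Benjamini-Hochberg adjusted p under 0.05, 7.70% higher and 5.99% lower in desmin knock-out muscle. Of these genes, 14.4% had 5 knock-out values that did not overlap the 5 wild-type values, 7.45% with the knock-out mice above and 6.97% with them below.

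**Figure D1:**
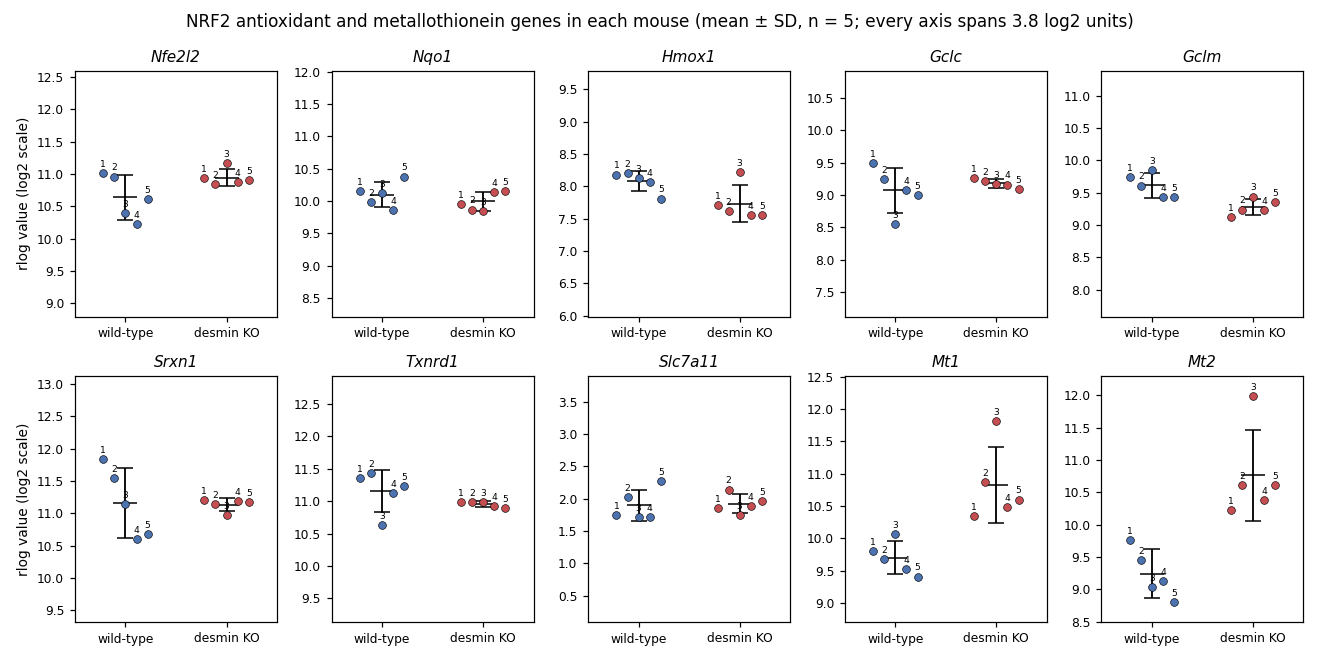
rlog values (log2 scale, vertical axis) of the 10 genes in 5 wild-type mice (blue) and 5 desmin knock-out mice (red), with the number of each mouse above its point and bars for the mean ± SD; every axis spans the same range. All knock-out points of Mt1 and Mt2 lie above all wild-type points, and knock-out mouse 3 is the highest in both.

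Both metallothionein genes rose in desmin knock-out muscle, whereas neither Nfe2l2 nor any other tested member passed the test. Of the 10 members, 9 reached the expression limit, and the limit used the mean over all 10 mice. Of these 9, 2 were higher and 0 were lower at an adjusted p under 0.05 (limma), where 7.70% and 5.99% of all tested genes were (13.7% together). At an unadjusted p under 0.05 there were 2 higher and 2 lower, the latter being Hmox1 and Gclm. The share of all tested genes at this looser threshold was not counted and is larger than the adjusted shares. Unadjusted counts here and below therefore have no background beside them. Exact permutation tests of single genes gave an unadjusted p under 0.05 for Mt1, Mt2 and Gclm. The 2 metallothioneins were also the members whose genotypes did not overlap. The median log2 difference of the 9 tested members was -0.02 and that of the 7 without Mt1 and Mt2 was -0.11, where the median of all tested genes was -0.003. In whole muscle, a lower level in each cell and fewer cells of a type cannot be told apart.

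Mt1 (ENSMUSG00000031765, chromosome 8, 94179082 to 94180327, forward strand of GRCm38) and Mt2 (ENSMUSG00000031762, chromosome 8, 94172664 to 94173568, forward strand) encode the metallothioneins found in most tissues and lie 5.51 kb apart. Mt1 was 10.35, 10.87, 11.81, 10.48 and 10.60 in knock-out mice 1 to 5 and 9.81, 9.68, 10.07, 9.53 and 9.41 in wild-type mice 1 to 5. The lowest knock-out mouse was above the highest wild-type mouse, and knock-out mouse 3 was the highest of all. The means were 10.82 ± 0.59 and 9.70 ± 0.26 (± SD, n = 5 mice each), a log2 difference of 1.12 (SE, standard error of the fit, 0.23, 95% interval 0.62 to 1.62, limma adjusted p = 0.0056). That is a 2.18-fold higher level on the rlog scale. Mt2 was 10.23, 10.62, 11.99, 10.38 and 10.61 in knock-out mice 1 to 5 and 9.77, 9.46, 9.04, 9.13 and 8.81 in wild-type mice 1 to 5. Again no knock-out value overlapped a wild-type value, and knock-out mouse 3 stood 1 to 2 log2 units above its group. Its means were 10.76 ± 0.70 and 9.24 ± 0.38 (± SD, n = 5 mice each), a log2 difference of 1.52 (SE 0.29, 95% interval 0.91 to 2.14, limma adjusted p = 0.00275), or 2.88-fold on the rlog scale. Exact two-sided permutation tests gave p = 0.00794 for each gene, the smallest p that 5 mice against 5 allow. Without knock-out mouse 3 the log2 differences were 0.88 for Mt1 (adjusted p = 0.00223) and 1.22 for Mt2 (adjusted p = 8.04e-04; both limma), and 1.21 and 1.47 with wild-type mouse 3 left out.

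The longest run that transcripts of Mt1 and Mt2 share is 20 bases. An antisense transcript, Gm45774, overlaps 432 bases of the exons of Mt2. Gm45774 was far lower than Mt2, with means of 2.28 in knock-out and 2.03 in wild-type mice, and below the expression limit. Its knock-out values (2.15 to 2.41) all lay above its wild-type values (1.91 to 2.12), the same direction as Mt2. The library kit kept the strand, but whether reads were counted by strand is not given in the sources used here.

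**Figure D2:**
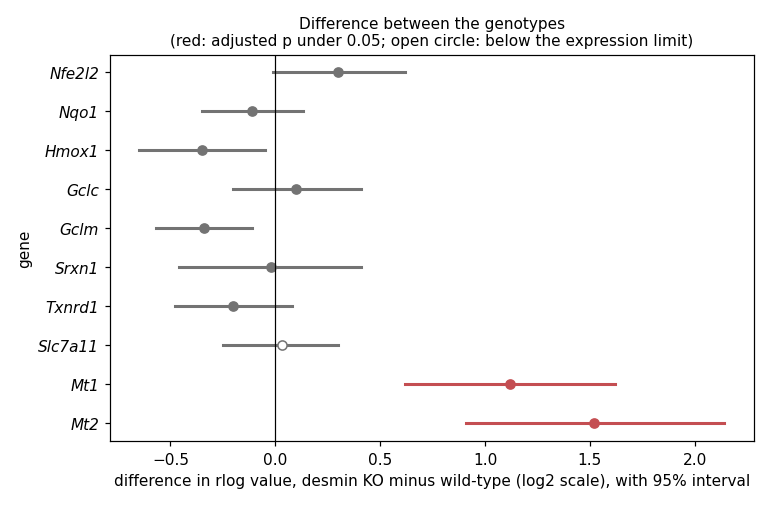
Difference in rlog value between desmin knock-out and wild-type mice (log2 scale, horizontal axis) for each of the 10 genes, with lines for the 95% interval of the limma fit (n = 5 mice per genotype). Only Mt1 (1.12) and Mt2 (1.52) are marked as past the threshold, and the other intervals lie between -0.65 and 0.62.

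Nfe2l2 (ENSMUSG00000015839, chromosome 2, 75675513 to 75704641, reverse strand), the gene of NRF2 itself, was 10.93, 10.84, 11.17, 10.87 and 10.90 in knock-out mice 1 to 5 and 11.01, 10.96, 10.39, 10.22 and 10.61 in wild-type mice 1 to 5. Wild-type mice 1 and 2 were at the level of the knock-out mice and the other wild-type mice were below it. The log2 difference of 0.30 (SE 0.15, 95% interval -0.01 to 0.62) had an adjusted p of 0.195 (limma), and it was 0.20 without wild-type mouse 4, 0.24 without wild-type mouse 3, 0.14 with the Y-linked mean as a covariate and 0.04 with sample weights. Among 9 regulators of NRF2, written as a list and all tested, 0 passed (limma), 1 had an unadjusted p under 0.05 (Nfe2l1), and their median log2 difference was -0.03 (-0.10 without wild-type mouse 3). Keap1, the inhibitor, differed by -0.21 (adjusted p = 0.268) and Mafk, a small MAF partner, by 0.23 (adjusted p = 0.325; both limma), although without wild-type mouse 1 Mafk passed (0.38, adjusted p = 0.0283). Nfe2l1, the related factor NRF1 that drives proteasome genes, had a log2 difference of 0.23 (SE 0.10, limma adjusted p = 0.167) although its 5 knock-out values, 14.91 to 15.07, did not overlap the wild-type values, 14.56 to 14.90, and it passed after quantile normalization (0.32, adjusted p = 0.0437).

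Glutathione is made in a first step by glutamate-cysteine ligase, whose catalytic subunit is encoded by Gclc and whose modifier subunit by Gclm, from cystine that the antiporter subunit encoded by Slc7a11 takes up. Gclm (ENSMUSG00000028124, chromosome 3, 122245557 to 122270732, forward strand) was 9.12, 9.24, 9.44, 9.23 and 9.35 in knock-out mice 1 to 5 and 9.74, 9.61, 9.85, 9.43 and 9.43 in wild-type mice 1 to 5. Only knock-out mouse 3 reached the range of the wild-type mice, by 0.01. The log2 difference was -0.34 (SE 0.11, 95% interval -0.57 to -0.11), with an adjusted p of 0.0518 from limma over all tested genes and p = 0.0238 in the exact permutation test. It lay between -0.38 and -0.28 in the alternatives and passed the adjusted threshold with median centring (0.045), with sample weights (0.00217), without wild-type mouse 4 (0.0345) and without wild-type mouse 5 (0.0391; all adjusted p from limma). The genes Gm17494 and Gm6061, which overlap 296 and 244 bases of its exons, were at or below -0.77 in every mouse, close to no reads.

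Gclc (ENSMUSG00000032350, chromosome 9, 77754535 to 77794485, forward strand) was 9.26, 9.21, 9.17, 9.16 and 9.09 in knock-out mice 1 to 5 and 9.49, 9.24, 8.55, 9.07 and 9.0 in wild-type mice 1 to 5. Wild-type mouse 3 was the lowest of all 10 mice. The log2 difference was 0.10 (SE 0.14, 95% interval -0.20 to 0.41, limma adjusted p = 0.675), and -0.03 without wild-type mouse 3. The ratio of Gclc to Gclm within a mouse, chosen for comparison after the values were seen, had a mean log2 value of -0.10 ± 0.17 in knock-out and -0.54 ± 0.43 in wild-type mice (mean ± SD, n = 5 each), a difference of 0.44 that is given without a test. Without wild-type mouse 3, whose ratio was -1.30, the difference was 0.25. Slc7a11 (ENSMUSG00000027737, chromosome 3, 49892526 to 50443614, reverse strand) was below the expression limit, with 1.75 to 2.14 in knock-out and 1.72 to 2.27 in wild-type mice, and differed by 0.03 (95% interval -0.25 to 0.30, limma adjusted p = 0.919 in a fit without the limit, where 5.55% of 28153 genes passed). At such low values rlog hides most of any change.

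Txnrd1 (ENSMUSG00000020250, chromosome 10, 82833951 to 82897712, forward strand), which encodes the reductase that keeps cytosolic thioredoxin active, was 10.99, 10.98, 10.99, 10.93 and 10.90 in knock-out mice 1 to 5 and 11.36, 11.44, 10.63, 11.13 and 11.23 in wild-type mice 1 to 5. The 5 knock-out values fell between wild-type mouse 3 and the other 4 wild-type mice. With all mice the log2 difference was -0.20 (SE 0.13, 95% interval -0.48 to 0.08, limma adjusted p = 0.349), and without wild-type mouse 3 it was -0.33 (limma adjusted p = 0.00633). Sample weights (-0.41, adjusted p = 1.85e-04) and the mean of Y-linked genes as a covariate (-0.36, adjusted p = 0.016, both limma) also took Txnrd1 past the threshold. The covariate is not independent of leaving out wild-type mouse 3, whose Y-linked mean was the lowest (9.52, compared with 9.88 to 10.62 in the other mice).

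Srxn1 (ENSMUSG00000032802, chromosome 2, 152105516 to 152111376, forward strand) encodes sulfiredoxin, which repairs over-oxidized peroxiredoxins. It was 11.21, 11.15, 10.97, 11.19 and 11.17 in knock-out mice 1 to 5 and 11.84, 11.55, 11.14, 10.61 and 10.68 in wild-type mice 1 to 5. Wild-type mice spread over more than 1 log2 unit on both sides of the knock-out mice. The SD was 0.53 in wild-type and 0.09 in knock-out mice, and the log2 difference was -0.02 (SE 0.20, 95% interval -0.46 to 0.41, limma adjusted p = 0.951). For Nfe2l2, Gclc and Txnrd1 the SD was likewise larger in wild-type mice (0.34, 0.35 and 0.32) than in knock-out mice (0.13, 0.06 and 0.04). A larger wild-type SD was found in 6 of the 7 tested members other than Mt1 and Mt2, (85.7%) and in 82.9% of all tested genes. Without wild-type mouse 3 it was found in the same number of these members and in 68.4% of all tested genes. In Mt1 and Mt2 the knock-out SD was the larger.

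Nqo1 (ENSMUSG00000003849, chromosome 8, 107388225 to 107403206, reverse strand), the quinone reductase often used as a marker of NRF2 activity, was 9.96, 9.87, 9.85, 10.14 and 10.15 in knock-out mice 1 to 5 and 10.16, 9.98, 10.13, 9.86 and 10.38 in wild-type mice 1 to 5. Wild-type mice 1 and 5 lay above every knock-out mouse, and the other wild-type mice lay within the knock-out range. Its log2 difference was -0.11 (SE 0.11, 95% interval -0.35 to 0.13, limma adjusted p = 0.565).

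Hmox1 (ENSMUSG00000005413, chromosome 8, 75093621 to 75100589, forward strand) encodes heme oxygenase 1, which breaks heme into biliverdin, iron and carbon monoxide and is abundant in macrophages that take up red blood cells. It was 7.71, 7.62, 8.22, 7.55 and 7.56 in knock-out mice 1 to 5 and 8.18, 8.21, 8.13, 8.07 and 7.81 in wild-type mice 1 to 5. Of the knock-out mice, 4 were below all wild-type mice and mouse 3 was above them all. The log2 difference was -0.35 (SE 0.14, 95% interval -0.65 to -0.05, limma adjusted p = 0.119; exact permutation test, p = 0.0556). Without knock-out mouse 3 the log2 difference was -0.47 (limma adjusted p = 0.0173). Of 5 tested markers of erythroid cells, 2 were lower (Alas2, -1.0, and Hbb-bs, -0.74) and 3 did not pass, with a median of -0.74 (-0.50 without wild-type mouse 3) and a summed level of 2880 to 4350 in knock-out and 4100 to 10600 in wild-type mice (sums of 2 to the power of the rlog value). Hbb-bs passed neither without knock-out mouse 1 nor without mouse 3 or mouse 4 (differences of -0.75 to -0.69, highest adjusted p 0.0659), and it is near-identical to Hbb-bt. Of 14 macrophage markers, all tested, 0 passed (limma), 0 had an unadjusted p under 0.05, and their summed level was 2930 to 4060 in knock-out and 2910 to 3840 in wild-type mice. The part of either cell type in the Hmox1 values was not tested.

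Of 18 further genes of metallothionein and zinc handling, taken by name, 17 were tested, and 3 were higher and 1 lower in the knock-out mice (median log2 difference 0.01). Mt3 (chromosome 8, 94152607 to 94154146), a metallothionein best known from brain that lies 18.5 kb from Mt2, was 6.79, 7.17, 7.13, 6.84 and 7.11 in knock-out mice 1 to 5 and 5.41, 5.85, 5.88, 6.10 and 5.33 in wild-type mice 1 to 5. All knock-out mice lay above all wild-type mice, and here mouse 3 was within its group. The log2 difference was 1.29 (SE 0.16, limma adjusted p = 9.96e-05), and it lay between 1.2 and 1.39 with each mouse left out in turn. Mt4, the metallothionein of squamous epithelia, was below the expression limit with means of 1.18 and 0.96. Its knock-out values (1.05 to 1.41) all lay above its wild-type values (0.94 to 0.97), at a level where rlog hides most of any change.

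Slc30a1 (chromosome 1, 191906767 to 191913247), the zinc exporter ZnT1 and a classical target of MTF1, was 8.40, 8.59, 9.0, 8.34 and 8.43 in knock-out mice 1 to 5 and 8.16, 8.17, 7.59, 7.88 and 8.02 in wild-type mice 1 to 5. Its genotypes did not overlap, and knock-out mouse 3 was again the highest. Its log2 difference was 0.59 (SE 0.15, limma adjusted p = 0.0173), and it passed with each mouse left out in turn. Slc39a14, the zinc and iron importer ZIP14, was higher by 0.47 (SE 0.13, limma adjusted p = 0.0316) with knock-out values of 9.87 to 10.42 and wild-type values of 9.25 to 9.84. Without knock-out mouse 1, 3 or 5 or wild-type mouse 4 it no longer passed (differences of 0.37 to 0.48, highest adjusted p 0.0772). Slc30a2, a transporter of zinc into vesicles, had a log2 difference of -0.58 (SE 0.17, limma adjusted p = 0.043), with overlapping genotypes. It passed in 2 of the 10 fits that left out a mouse, those without knock-out mouse 3 and without wild-type mouse 5 (lowest adjusted p 0.0125, highest 0.111, differences from -0.71 to -0.47). Mtf1, the gene of the zinc sensor, was 9.41 ± 0.10 in knock-out and 9.44 ± 0.09 in wild-type mice (mean ± SD, n = 5 each), a log2 difference of -0.03 (95% interval -0.22 to 0.16, limma adjusted p = 0.857).

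**Figure D3:**
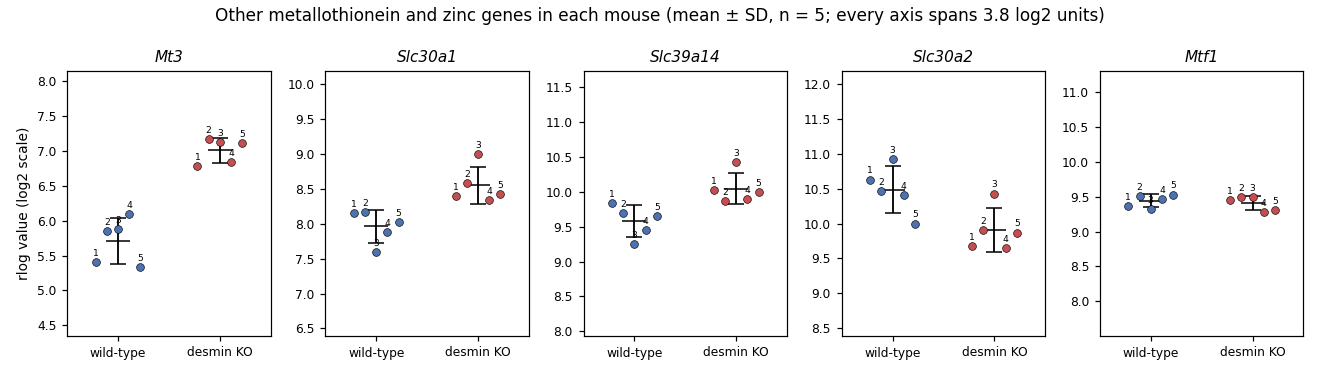
rlog values (log2 scale, vertical axis) of 5 genes of metallothionein and zinc handling in 5 wild-type mice (blue) and 5 desmin knock-out mice (red), with mouse numbers and bars for the mean ± SD. Mt3, Slc30a1 and Slc39a14 do not overlap between the genotypes, Slc30a2 is lower with overlap, and Mtf1 has means of 9.41 and 9.44.

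Since glucocorticoids also switch on metallothionein genes, 15 genes that respond to glucocorticoids were followed, all of them tested. Of these, 2 were higher and 1 was lower, with a median log2 difference of -0.05 (-0.19 without wild-type mouse 3). Pdk4, a kinase that blocks pyruvate oxidation, was higher by 1.25 (SE 0.22, adjusted p = 0.00163) and Angptl4, an inhibitor of lipoprotein lipase, by 1.00 (SE 0.21, adjusted p = 0.00695; both limma), and both also respond to fasting and fatty acids. Sgk1 was lower, with a log2 difference of -0.56 (limma adjusted p = 0.0411), which passed without wild-type mouse 3 or 4 but not when any of the other 8 mice was left out (highest adjusted p 0.103). Fkbp5, Tsc22d3 and Per1, which are among the most direct of these targets, differed by -0.38, 0.02 and 0.10 (adjusted p = 0.338, 0.957 and 0.771 from limma). Without knock-out mouse 3 Fkbp5 differed by -0.65 and passed (limma adjusted p = 0.0106), the other 4 knock-out mice lying below every wild-type mouse. Without wild-type mouse 3 Tsc22d3 and Per1 turned to -0.21 and -0.08 and did not pass. In knock-out mouse 3, which had the highest Mt1 and Mt2, Fkbp5 was 12.16, compared with 10.50 to 11.12 in the other knock-out mice. Most genes of the list had their highest knock-out value in this mouse, with Pdk4 (16.31), Tsc22d3 (13.91) and Per1 (10.62) among them. The list was not uniform, however. Angptl4 (8.08) and Sgk1 (12.0), which both passed, were among the few genes with their lowest knock-out value there. The summed level of the list was 80000 to 121000 in knock-out mice, highest in mouse 3, and 43500 to 87100 in wild-type mice. Pdk4 alone made up 58.2% to 67.7% of this sum in knock-out and 34.1% to 47.6% in wild-type mice. Without Pdk4 the sum was 31900 to 39500 in knock-out, again highest in mouse 3, and 24300 to 48400 in wild-type mice. The part of these genes in the metallothionein values was not tested.

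Genes of the wider antioxidant system passed the test in both directions. As a measure for the counts of this and every other list, 7.70% of all tested genes were higher and 5.99% lower (13.7% together, limma). Among 28 genes of glutathione synthesis and use, 25 were tested, 1 was higher and 3 were lower, and the median log2 difference was -0.16. Without wild-type mouse 3 there were 3 higher and 3 lower, with a median of -0.03. The higher gene was Gss, the second enzyme of glutathione synthesis (0.36, SE 0.09, limma adjusted p = 0.0203), which did not pass without knock-out mouse 2 or 3 (difference 0.34 in each case, highest adjusted p 0.0603). Gpx3, the secreted glutathione peroxidase, was 11.63 to 12.04 in knock-out and 12.19 to 12.97 in wild-type mice, a log2 difference of -0.65 (SE 0.14, limma adjusted p = 0.0073). Chac1, which degrades glutathione, had a log2 difference of -1.40 (SE 0.36, adjusted p = 0.0181) and Oplah, which recycles glutamate from its breakdown product, of -0.55 (adjusted p = 0.0244; both limma). Chac1 did not pass without knock-out mouse 1 or 2 (difference -1.29 in each case, highest adjusted p 0.0555), nor Oplah without knock-out mouse 2, 4 or 5 (highest adjusted p 0.0673). Oplah differed by -0.39 without wild-type mouse 3, where it still passed.

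Of 20 genes of the thioredoxin and peroxiredoxin system, all tested, Sesn3 was higher (0.57, SE 0.11, limma adjusted p = 0.00324) and Msrb1 lower (-0.44, SE 0.12, limma adjusted p = 0.0222), with a median of 0.01, and Sesn1 differed by 0.34 (limma adjusted p = 0.18). Sesn3 encodes a sestrin, which restrains mTORC1, and Msrb1 a methionine sulfoxide reductase. Msrb1 did not pass without knock-out mouse 1 or 4 (differences of -0.37 and -0.43, highest adjusted p 0.0629). NADPH is the reductant for both systems, and of 9 genes of its supply 2 were lower, the transketolase gene Tkt (-0.73, SE 0.13, adjusted p = 0.0022) and the malic enzyme gene Me1 (-0.47, SE 0.10, adjusted p = 0.00667; both limma), with a median of 0.06 (0.11 without wild-type mouse 3). Both separated the genotypes completely and passed with each mouse left out in turn. Idh1, an isocitrate dehydrogenase gene, differed by 0.39 (limma adjusted p = 0.0686) and passed without wild-type mouse 5 (0.047). Of 8 genes of superoxide and peroxide removal, 1 was higher, the mitochondrial carrier gene Ucp2 (0.36, limma adjusted p = 0.0461). It passed only without wild-type mouse 3 among the fits that left out a mouse (highest adjusted p 0.126). Ucp3 and the extracellular superoxide dismutase gene Sod3 differed by 0.44 and 0.28 (adjusted p = 0.0912 and 0.211 from limma). The median of the list was 0.08, and 0.14 without wild-type mouse 3.

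Of 16 genes of quinone and carbonyl detoxification, all tested, 2 were higher and 2 lower, with a median of -0.02. The aldehyde dehydrogenase gene Aldh3a1 was 5.25 to 6.03 in knock-out and 4.0 to 4.48 in wild-type mice, a log2 difference of 1.36 (SE 0.16, limma adjusted p = 6.07e-05). Akr1b8, an aldo-keto reductase, was higher by 0.44 (limma adjusted p = 0.0191), but not past the threshold without knock-out mouse 1 or 2 or wild-type mouse 2 (highest adjusted p 0.0564). The exporter gene Abcc4 had a log2 difference of -0.58 (SE 0.10, limma adjusted p = 0.00183). Aldh1a1, a retinaldehyde dehydrogenase, differed by -0.46 (limma adjusted p = 0.0474) and passed in 3 of the 10 fits that left out a mouse, those without knock-out mouse 3, wild-type mouse 4 or wild-type mouse 5 (adjusted p from 0.0176 to 0.118 over the 10).

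Of 14 genes of heme and iron handling, 13 were tested, 0 were higher and 2 were lower at the adjusted threshold (limma), with a median log2 difference of -0.24. At an unadjusted p under 0.05, for which the share of all tested genes was not counted, there were 0 higher and 4 lower. Slc40a1, the iron exporter ferroportin, was 9.30 to 9.44 in knock-out and 9.77 to 10.75 in wild-type mice, a log2 difference of -0.94 (SE 0.15, limma adjusted p = 0.00114), and it passed with each mouse left out in turn. Alas1, the first enzyme of heme synthesis, differed by -0.47 (limma adjusted p = 0.0327), and passed in 4 of the 10 fits that left out a mouse, each of these without wild-type mouse 1, 3, 4 or 5 (adjusted p up to 0.088 in the others). Ftl1, the ferritin light chain, had a log2 difference of -0.37 (limma adjusted p = 0.0828), although its genotypes did not overlap. The erythroid values given beside Hmox1 moved in the same direction as this list, and their part in it was not tested.

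Among enzymes that produce superoxide or peroxide, 7 of 10 were tested and 1 passed, with a median of -0.02. Nox4, an NADPH oxidase that makes hydrogen peroxide, was 6.71, 6.88, 7.20, 6.87 and 6.82 in knock-out mice 1 to 5 and 6.31, 6.29, 5.57, 5.31 and 6.50 in wild-type mice 1 to 5. The genotypes did not overlap, and the log2 difference of 0.90 (SE 0.21, limma adjusted p = 0.0116) stayed past the threshold with each mouse left out in turn. Cybb, the oxidase of phagocytes, differed by 0.35 (limma adjusted p = 0.121) and Xdh, xanthine dehydrogenase, by -0.30 (limma adjusted p = 0.199).

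**Figure D4:**
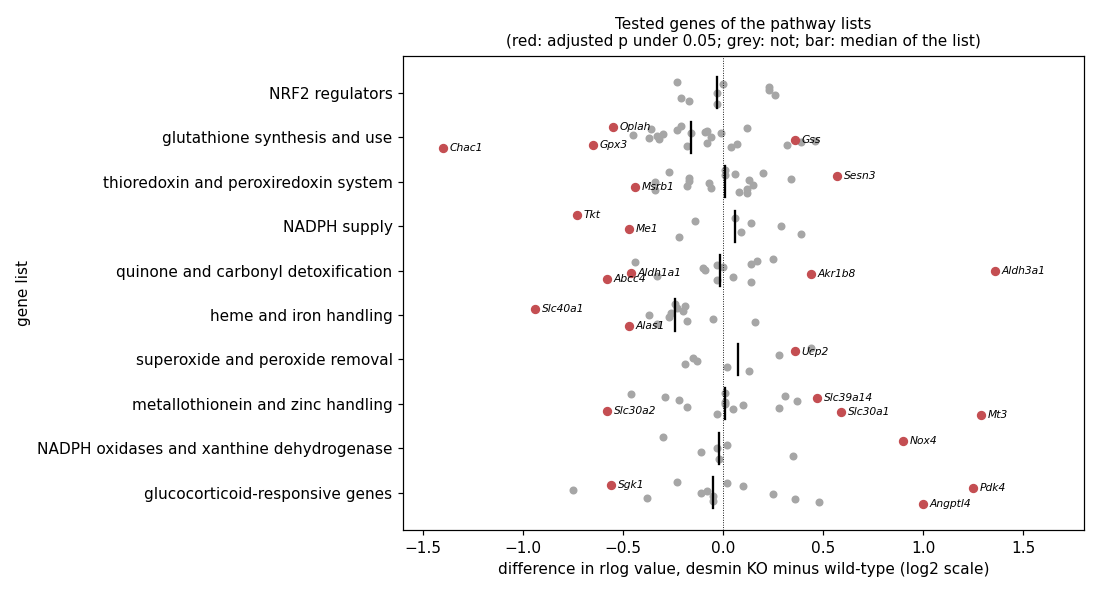
Difference in rlog value between desmin knock-out and wild-type mice (log2 scale, horizontal axis) of each tested gene in 10 lists of the antioxidant, zinc, iron and glucocorticoid systems (vertical axis), with named red points for an adjusted p under 0.05 and bars for list medians. Red points lie on both sides of 0, and the list medians lie between -0.24 and 0.08.

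Markers of other cells are given because the members are expressed in several of them. Of 10 fibroblast markers, 4 were higher (Lum, Col1a2, Col1a1 and Col3a1) and 1 was lower (Ly6a), with a median of 0.28 (0.15 without wild-type mouse 3) and summed levels of 18100 to 27200 in knock-out and 15200 to 26000 in wild-type mice. Of 10 endothelial markers, 5 were lower (Vwf, Cdh5, Pecam1, Tie1 and Tek) and 0 higher, with a median of -0.38 and summed levels of 4990 to 6390 and 6310 to 7920. Of 8 adipocyte and 7 tested Schwann cell markers, 0 passed (limma) and 0 had an unadjusted p under 0.05, with medians of 0.00 and 0.12 and overlapping summed levels (7530 to 9660 and 7270 to 10800 for adipocytes, 1930 to 2650 and 1570 to 2740 for Schwann cells). Of 8 neutrophil markers 2 were tested and 1 was lower (S100a9, -1.18, limma adjusted p = 2.54e-04), Elane being 0 in all mice, with sums of 29.4 to 40.0 and 33.4 to 51.5. Of 6 markers of satellite cells, 1 was higher (Myog, 1.23) and 1 lower (Myod1, -0.47), with a median of 0.02 and sums of 1880 to 2370 and 1640 to 2690. Of the 13 fiber markers, Myh2, the myosin of fast oxidative fibers, was higher by 0.77 and Actn3 and Myh4, both of fast glycolytic fibers, had log2 differences of -0.97 and -0.71, with a list median of -0.41 and summed levels of 5930000 to 6730000 and 6830000 to 13400000. Without wild-type mouse 3 the fiber list had 3 higher and 2 lower genes and a median of -0.19, and the highest wild-type sum was 8670000. Of the markers that passed, Myh2, Actn3, Myh4, Tie1, Tek, Col1a1, Col3a1 and Myod1 did not pass in every fit that left out a mouse (highest adjusted p 0.0562, 0.0557, 0.105, 0.0975, 0.117, 0.116, 0.117 and 0.0681 from limma). How much any of these cell types adds to the metallothionein or NRF2 values was not tested.

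For each member, the tested gene outside the group with the most similar values was taken from the Pearson correlation of deviations from the genotype means over 10 mice. With 14289 genes to choose from, coefficients of 0.94 to 0.99 were found for every member, and the same pairs gave 0.94 to 0.98 over 9 mice without wild-type mouse 3. For 8 of the 10 members another gene was then the most similar one, so the choice of gene is not stable, and this is a description only. Mt1 went most closely with Zranb1 (0.95) and Mt2 with Necap1 (0.95), Hmox1 with Zranb3 (0.94), Nfe2l2 with Ltn1 (0.98), Nqo1 with Ctso (0.98), Gclc with Impact (0.99), Gclm with Sar1a (0.98), Txnrd1 with Taf1 (0.99) and Slc7a11 with Ifi208 (0.96). Srxn1 went most closely with Rgs2 (0.98), a regulator of G protein signalling, which was 8.76, 8.44, 8.17, 7.62 and 7.64 in wild-type mice 1 to 5 and 8.60 to 8.73 in knock-out mice. None of these 10 genes differed between the genotypes at an adjusted p under 0.05 (limma), the smallest being 0.0877 for Rgs2. Knock-out mouse 3 was the highest knock-out mouse for Mt1, Mt2 and Hmox1 and also for Zranb1 (12.48), Necap1 (9.35) and Zranb3 (9.2). The coefficients of these pairs were not computed without that mouse.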

How the data were processed

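Gastrocnemius RNA of 5 Des -/- and 5 Des wt/wt mice was sequenced with a stranded mRNA kit. Per the labels and the submitters' processing notes, the authors used cutadapt 2.5, STAR 2.5.4a, Subread 1.6.1 with featureCounts and DESeq2 on GRCm38 (mm10). The values deposited by the authors are DESeq2 rlog values on a log2 scale, 1 column per mouse, corrected for library size, with each gene pulled in towards its average. The settings of the transformation and of strand are not given in the sources used here. Depth is unknown, the shrinkage cannot be undone, and the number of mice limits the precision. All 10 columns were used.

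Genes that averaged log2(10) or more entered a limma 3.58.1 fit in R 4.3.3 (eBayes with trend, two-sided, Benjamini-Hochberg over 14289 genes). Slc7a11, below the limit, was taken from the fit without it. Single genes were also tested with exact permutation tests over the 252 splits of 5 against 5, without adjustment. Symbols were found for 54165 of 54232 identifiers in GENCODE M21 (GRCm38), and for a symbol with several identifiers the one with the highest mean was used. Lists were described by counts and medians. No set test was run. The members and lists were chosen with earlier results of these data known. Named were all members, Des, the 3 genes per list that had the lowest adjusted p, any others needed to name a count of 5 or fewer (for marker lists, those that passed), and the gene most like each member. Mtf1, Mt4, Fkbp5, Tsc22d3 and Per1 were named outside this rule, with their values known. Whether the mice of a genotype came from separate litters is not stated, so p-values measure the spread between these mice. Alternatives were no limit, quantile normalization, median centring, a limit of log2(50), 1 prior variance, sample weights, the replicate number as a block, the Y-linked mean as a covariate, an adjusted p under 0.01 and each mouse left out.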

Additional observations from a re-analysis of the deposited data

Results flagged for a closer look

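In each genotype of 5 mice, a mouse was looked for whose distance to the nearest other mouse made up more than 0.71 of the range of the group, in 64 groups of values. Such a mouse was found 12 times, where chance gives about 1 in 20 groups. Knock-out mouse 3 lay above the other knock-out mice for Hmox1 (8.22) and Mt2 (11.99) and below them for Srxn1 (10.97). Wild-type mouse 3 was the high one of its genotype for Des (17.74) and for the summed levels of glutathione synthesis and use (76400), heme and iron handling (147000), muscle fibers (13400000) and erythroid cells (10600), and below them for the log2 ratio of Gclc to Gclm (-1.30). The remaining 3 were knock-out mouse 1 with a low sum of glutathione genes (46200), wild-type mouse 1 with a low sum of endothelial markers (6310) and wild-type mouse 5 with a low sum of neutrophil markers (33.4).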

How the results depend on the processing

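Mt1 and Mt2 were higher with an adjusted p under 0.05 in all 18 alternative limma fits, with log2 differences of 0.88 to 1.24 and 1.16 to 1.66. The count of 1956 tested genes past the threshold moved to 4220 with sample weights and to 994 at an adjusted p under 0.01, and that of members, 2 with all mice, to 5 with sample weights. Members past it on the lower side, 0 with all mice, were 1 with median centring (Gclm), 1 with the Y-linked covariate (Txnrd1), 3 with sample weights (Hmox1, Gclm and Txnrd1) and 0 to 1 with each mouse left out. Leaving out mice gave 2 to 4 members without overlap, the 4 being without knock-out mouse 3, where Hmox1 and Gclm joined. Fewer mice separate more easily, and the share of all tested genes was counted only with all mice (14.4%). The rise can therefore not be read as a result about the members. Of the list genes, 41 passed, compared with 23 without an expression limit, 76 with sample weights, 17 at an adjusted p under 0.01 and 25 to 44 with a mouse left out. The sign turned for Gclc with sample weights (-0.12), with the Y-linked covariate (-0.07) and without wild-type mouse 3 (-0.03 to 0.21 over all mice left out), and for Srxn1 after quantile normalization (0.02) and with a mouse left out (-0.16 to 0.14), neither of which passed in any fit. The 41 list genes that passed and Des kept their sign in these fits, and the list genes lost their call in 151 of them. Among 14 named list genes that did not pass, the sign turned for Tsc22d3 with median centring (-0.02), sample weights (-0.20) and the Y-linked covariate (-0.21), for Per1 with sample weights (-0.03) and the covariate (-0.09), and with a mouse left out for Tsc22d3 (-0.21 to 0.11), Per1 (-0.08 to 0.27) and Mtf1 (-0.06 to 0.00). Over all fits Nfe2l2 lay between 0.04 and 0.40 and Nqo1 between -0.17 and -0.03, and neither passed. The causes were not tested. The deviations of mice with the same number correlated between -0.219 and 0.067, which cannot show whether the numbers pair the mice. The labels give no pairing. With the replicate block 1579 genes and the members Mt1 (adjusted p = 6.91e-04) and Mt2 (adjusted p = 0.00346, both limma) passed.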
